A study of Homo sapiens with 21 samples.

Results

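Gene expression in 3 libraries labelled as StAMP-resistant OCI-AML3 cells, resistant biological replicate 1 ("resistant 1" here), was compared with that in 3 OCI-AML3 libraries treated with DMSO, the vehicle. Both groups belonged to sequencing batch 1, and they make up 6 of the 21 libraries of the series. All genes that passed a low-count filter were compared, 14609 of the 28008 genes counted. OCI-AML3 is an acute myeloid leukaemia cell line. The labels give the vehicle libraries the genotype WT and the treatment DMSO, and the resistant 1 libraries the genotype Res and the treatment StAMP. StAMP is not spelled out in the labels, and the title of the series speaks of stapled oncolytic peptides and membrane cholesterol. K562 parental cells (3 libraries, genotype WT, no treatment given) stand beside the comparison, as a second cell line. K562 was derived from a chronic myeloid leukaemia, and the labels call it erythroleukemia. OCI-AML3 parental cells (3 libraries, genotype WT, no treatment given) were sequenced in the same batch. Culture conditions, the course of selection and whether resistant 1 is a clone or a pool are not stated in the labels. The 3 samples of a group are numbered, but nothing says that they came from separate cultures, and p-values therefore reflect a spread that may be technical.

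Myeloid cells that resemble monocyte precursors depend on the transcription factors PU.1 (encoded by SPI1), CEBPA and IRF8, and make granule proteases, Fc receptors and pattern recognition receptors. Erythroid precursors depend instead on GATA1, TAL1 and KLF1, and make globins, heme and the red cell membrane skeleton. Cells of both kinds build cholesterol from acetyl-CoA through enzymes whose genes are switched on by SREBP2 when sterols in the endoplasmic reticulum are low, and peptides that break membranes meet the cholesterol, charged sugars and lipids of the cell surface first.

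The libraries labelled resistant 1 did not carry the expression profile of OCI-AML3. Genes that tell the lines apart were taken from the parental libraries alone, as those averaging at least 20 CPM (the usual count per unit of library size, with sizes scaled by TMM) in one line with 0 counts in the other. The 87 OCI-AML3 genes so found summed to between 5371 and 5389 CPM in the 3 vehicle libraries and to 3.65, 2.15 and 3.51 CPM in the 3 libraries labelled resistant 1. The latter are 0.0678%, 0.0399% and 0.0653% of the mean of the vehicle libraries, and 32 of the 87 genes had 0 counts in all 3. The 114 K562 genes summed to between 9117 and 9395 CPM in the K562 libraries, to 9227, 9224 and 9298 CPM in the libraries labelled resistant 1 and to between 0.727 and 1.23 CPM in the vehicle libraries. So the libraries labelled resistant 1 stood at the level of K562 on the 114 genes. On the 87 genes they stood near K562, whose 0 counts there were fixed by the choice of genes. The vehicle libraries stood at the level of OCI-AML3 parental cells on the 87 genes, which summed to between 5230 and 5458 CPM in those cells. On the 114 genes the 0 counts of parental cells were likewise fixed by the choice. Every direction given below is that of the libraries labelled resistant 1, whatever cells they hold. The comparison with vehicle cannot tell a change that came with resistance apart from a difference between cell lines. This limit holds for every result given against vehicle alone. For this reason many results are also given beside the value against K562. For the K562 libraries the labels name no vehicle, no StAMP and no selection, and do not say how the cells were handled. The handling of the cells and the label resistant 1 therefore cannot be told apart in that comparison either.

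Total counts ran from 15157255 to 21091646 per vehicle library, from 14066821 to 20117285 per library labelled resistant 1 and from 14550367 to 19041929 per K562 library. Between 16098 and 16721 genes were detected in a vehicle library, between 16807 and 17234 in one labelled resistant 1 and between 16282 and 16537 in a K562 library. Read counts of 2 libraries of a group differed by 1.81 to 7.18 times sampling noise (chi-square per degree of freedom), those of a library labelled resistant 1 and a K562 library by 27.0 to 35.8 times, and those of a library labelled resistant 1 and a vehicle library by 272.5 to 368.5 times. No library was a copy of another.

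Most genes differed between the libraries labelled resistant 1 and vehicle. By edgeR's quasi-likelihood test with Benjamini-Hochberg adjustment, 12566 of the 14609 genes had an adjusted p under 0.05 (86.0%), and such genes are referred to as called. They divided into 6103 that were higher (41.8%) and 6463 that were lower (44.2%). The 3 libraries of one group did not overlap the 3 of the other for 12641 genes (86.5%). With so many genes called, passing the test says little by itself, and the size of a difference says more. A difference of at least 2-fold was called for 3203 genes that were higher (21.9%) and 3347 that were lower (22.9%). At least 16-fold differences (4 on the log2 scale) were called for 1214 higher and 1313 lower genes, while 2983 called genes differed by less than 0.5 on the log2 scale.

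Most of these large differences were absent when the same libraries were set beside K562. Of the 6550 genes called with at least a 2-fold difference from vehicle, 4912 lay within 2-fold of K562. The median absolute log2 difference over all genes with a value was 0.85 from vehicle and 0.27 from K562. The libraries labelled resistant 1 still differed from K562, with 7772 genes called (53.2%), 3947 higher (27.0%) and 3825 lower (26.2%), but only 1449 of the called genes by 2-fold or more. Vehicle and OCI-AML3 parental libraries differed for 5408 genes (37.0%). Both of the comparisons with resistant 1 share its 3 libraries. The difference between K562 and OCI-AML3 parental cells shares no library with that between resistant 1 and vehicle. Of 11356 genes called in both of those, 11020 (97.0%) had the same sign and 336 the opposite sign. Across the 14609 genes the 2 differences had a Pearson r of 0.96 and a Spearman rho of 0.94, as a description, since genes are not independent replicates and all 12 libraries were scaled in a single fit.

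**Figure D1:**
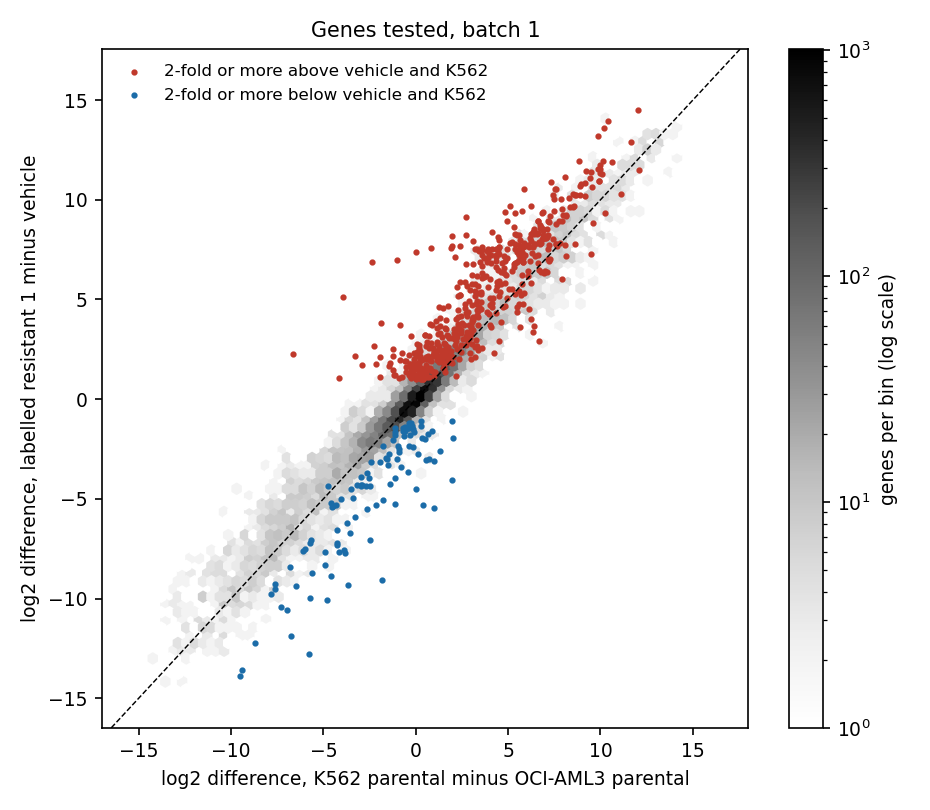
Log2 difference between the libraries labelled resistant 1 and vehicle (vertical axis) against that between K562 and OCI-AML3 parental libraries (horizontal axis), as the number of genes per hexagon over 14609 genes, both from 1 edgeR fit of 12 libraries. Genes called at least 2-fold higher (red, 512) or lower (blue, 110) than both vehicle and K562 are drawn as points; most genes lie along the dashed line of equal differences.

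The most abundant genes that were higher in the libraries labelled resistant 1 than in vehicle were genes of fetal and embryonic globin, iron uptake, metabolism and one tumour antigen. PRAME, a cancer-testis antigen at chr22:22547701-22559361 (hg38), stood at 1562, 1550 and 1550 CPM against 0.727, 1.87 and 1.98 CPM in vehicle, a log2 difference of 9.997 ± 0.098 (SE; adjusted p = 3.8e-29 by edgeR). K562 had 1586, 1556 and 1606 CPM of it, so these libraries overlapped K562 and were far above vehicle. HBE1, the embryonic epsilon globin gene (chr11:5268345-5505652), had 1223, 1378 and 1310 CPM, while the vehicle libraries together held 3 counts of it, a ratio of 22910 (95% counting interval 7840 to 111100). HBG2, a fetal gamma globin gene (chr11:5253188-5505605), had 1217, 1255 and 1267 CPM, with 2 counts in vehicle and a ratio of 32880 (9103 to 271500). Against K562, HBE1 was 0.29 higher and HBG2 0.26 lower on the log2 scale, and both were called. HBG2 and HBG1 are near-identical copies, and the annotated span of HBG2 overlaps that of HBE1, so how reads were divided among these genes is uncertain.

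TFRC, the transferrin receptor (chr3:196012511-196082153), had 1290, 1195 and 1259 CPM against 134.8, 127.7 and 127.7 CPM in vehicle, a log2 difference of 3.26 ± 0.06 (SE; adjusted p = 6.0e-26), and was 0.25 lower than in K562. The chromatin protein gene HMGA1 was 2.02 higher than in vehicle on the log2 scale, the fatty acid desaturase FADS1 2.15, the clathrin adaptor PICALM 2.43, the hexokinase HK1 2.64 and the glutamine synthetase GLUL 2.90. For HMGA1 and PICALM the difference from K562 was not called, and for FADS1, HK1 and GLUL it was 0.11, -0.17 and -0.27. LOC102724908, which has no position in the annotation used, had between 836.2 and 851.3 CPM against a highest vehicle value of 0.112 CPM, and was 0.12 lower than in K562. For each of these 10 genes the 3 libraries labelled resistant 1 lay above all 3 vehicle libraries, by rule, and their mean lay within 2-fold of K562, which the rule did not use.

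Among the most abundant genes that were lower, myeloid granule and transcription factor genes were close to absent. CTSG, the neutrophil granule protease cathepsin G (chr14:24573518-24576250), stood at 0, 0.268 and 0.270 CPM against 1458, 1565 and 1552 CPM in vehicle, a log2 difference of -13.11 ± 0.13 (SE; adjusted p = 9.6e-29), with 0, 0.124 and 0.0527 CPM in K562. IRF8, which directs monocyte and dendritic cell development (chr16:85899116-85922606), had 3 counts in the libraries labelled resistant 1 against 1155, 1128 and 1144 CPM in vehicle, a ratio of 20750 (7101 to 100600) in favour of vehicle. Both were near 0 in K562 as well. LYST, which governs the size of lysosomes (chr1:235661041-235883724), stood at 8.72, 7.35 and 9.73 CPM against 1399, 1342 and 1248 CPM in vehicle, and was 1.04 higher than in K562 on the log2 scale.

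Most others of this group kept a measurable level. MYH9, the non-muscle myosin heavy chain (chr22:36281280-36388010), stood at 249.0, 264.2 and 259.8 CPM against 1169, 1196 and 1181 CPM in vehicle, a log2 difference of -2.20 ± 0.04 (SE; adjusted p = 3.3e-27). The actin-binding peptide gene TMSB4X was 2.05 lower than in vehicle. The kinase GRK2 was 3.10 lower, IRF2BP2 3.41 lower, MEF2D 5.15 lower and KIAA0930 5.26 lower. OGFRL1 was nearly absent, with 24 counts in the libraries labelled resistant 1 and a log2 difference of -11.06. GRK2, MEF2D and OGFRL1 were not called against K562, TMSB4X and MYH9 were 0.30 and 0.15 lower than in K562, and IRF2BP2 and KIAA0930 were 0.14 and 0.40 higher.

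**Figure D2:**
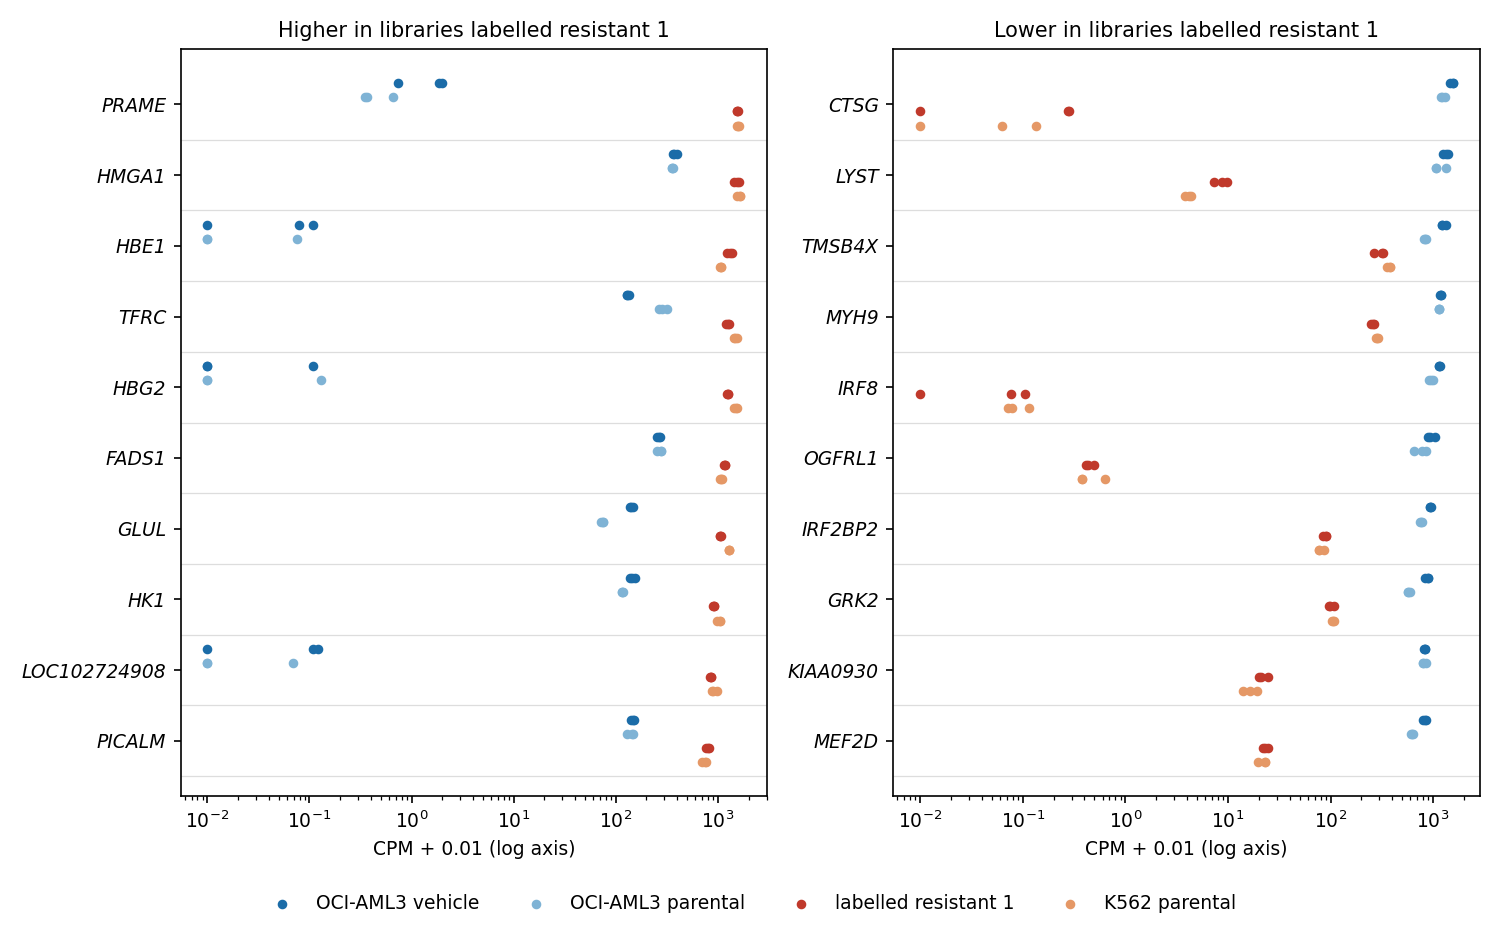
CPM + 0.01 on a log axis of the 10 most abundant genes that were higher (left) and the 10 that were lower (right) in the libraries labelled resistant 1 than in vehicle; each point is 1 library, 3 per group. For each gene the red points lie away from the dark blue vehicle points and near the orange K562 points, with IRF8 and CTSG at or near 0 in both.

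Promoter sequences of lineage genes are shown because members of the lists below moved together between these libraries, and the letters searched are those that GATA factors and PU.1 are known to bind. The 130 bases upstream of the annotated start, 5′ to 3′ on the gene's strand, are from RefSeq on GRCh38.p14. Capitals mark AGATAA or its reverse complement TTATCT in the first 3, and AGGAAGT or its reverse complement ACTTCCT in the last 2. The 5 genes were chosen after their values were seen.
TAL1 (chr1:47232336-47232465): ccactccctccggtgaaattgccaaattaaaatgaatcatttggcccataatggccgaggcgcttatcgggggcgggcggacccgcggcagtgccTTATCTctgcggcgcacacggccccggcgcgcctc
ALAS2 (chrX:55030978-55031107): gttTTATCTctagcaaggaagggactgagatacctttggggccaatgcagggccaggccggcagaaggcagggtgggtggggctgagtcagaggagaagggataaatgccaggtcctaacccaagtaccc
EPB42 (chr15:43221019-43221148): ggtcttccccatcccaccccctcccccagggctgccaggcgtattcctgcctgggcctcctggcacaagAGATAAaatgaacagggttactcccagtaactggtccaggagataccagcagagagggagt
CD68 (chr17:7579508-7579637): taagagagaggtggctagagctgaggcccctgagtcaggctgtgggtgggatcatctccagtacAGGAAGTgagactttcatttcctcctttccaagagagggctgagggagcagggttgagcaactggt
TYROBP (chr19:35908296-35908425): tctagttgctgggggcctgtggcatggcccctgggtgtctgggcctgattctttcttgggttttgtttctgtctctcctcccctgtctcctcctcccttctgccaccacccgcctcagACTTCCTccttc

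In the 250 bases upstream, AGATAA on either strand was found in 7 of the 16 red cell genes that had a promoter in the table (43.8%), in 4.79% of the 10619 tested genes with one and in 9.37% of all 27305 promoters. AGGAAGT on either strand was found in 5 of 27 monocyte and macrophage genes (18.5%), in 7.03% of the tested genes and in 7.1% of all promoters. CCACCC, a sequence KLF1 is known to bind, was found on either strand in 7 of the 16 red cell genes (43.8%), in 34.9% of the tested genes and in 30.4% of all promoters. These are matches of letters only, none of the 3 motifs contains another, and binding was not measured here.

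Red cell genes were higher in the libraries labelled resistant 1 than in vehicle. A gene expressed in only one group passes the filter through that group and then has to differ, so the counts of list members given from here on are descriptions. They are to be read beside the shares of all genes tested, 41.8% higher and 44.2% lower than vehicle, and 27.0% and 26.2% against K562. Of 33 globin and red cell membrane genes, 31 passed the filter and all 31 were called higher, where 41.8% of all genes tested were. Their median log2 difference from vehicle was 8.87, with genes at 0 counts set to a bound of 3 counts over the group, against -0.04 over all genes. Their median difference from K562 was 0.15, with 15 called higher and 10 lower. The list's summed level ran from 8287 to 8506 CPM, from 418.5 to 428.7 CPM in vehicle and from 8325 to 8494 CPM in K562. Thus the summed level was about that of K562 in each library, far above vehicle.

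Single members departed from K562 in both directions. ALAS2, the erythroid enzyme that starts heme synthesis, whose promoter is printed above, had 117.9, 119.5 and 113.1 CPM against 0 counts in vehicle, at least 2064-fold higher. K562 had 41.1, 38.7 and 38.2 CPM of it, and the log2 difference of 1.57 from K562 was called (adjusted p = 1.8e-16). SLC4A1, the band 3 anion exchanger of the red cell membrane, had 40.0, 40.7 and 37.2 CPM, with 1 count in vehicle and 4.53, 4.22 and 3.74 CPM in K562, a log2 difference of 3.25 from K562. The carbonic anhydrase CA1 and the alpha globin chaperone AHSP were 1.80 and 1.03 higher than in K562, as was EPB42 (protein 4.2), by 1.13. RHAG, of the red cell surface, was 0.41 lower than in K562. HBB, the adult beta globin gene, stood at 0.766 CPM and was not called against K562.

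The main erythroid transcription factors were likewise higher than in vehicle. GATA1 (chrX) stood at 207.6, 234.8 and 206.7 CPM with 1 count in vehicle (ratio 11460), and K562 had 188.0, 173.4 and 187.7 CPM. TAL1 stood at 138.0, 133.4 and 132.1 CPM against 6.94, 6.38 and 7.99 CPM in vehicle, a log2 difference of 4.26 ± 0.08 (SE; adjusted p = 6.9e-27), and was 0.31 lower than in K562. KLF1 had 108.7, 133.2 and 117.7 CPM against at most 0.295 CPM in vehicle, and was not called against K562. All 3 factors were therefore abundant and lay apart from vehicle, and KLF1 lay among the K562 values. Of 17 factors of this list tested, 11 were called higher and 6 lower. FLI1 and ERG, factors of megakaryocytes and blood vessel cells, were among the lower ones. FLI1 stood at 0.0948, 0.161 and 0 CPM against 137.8, 136.0 and 140.9 CPM in vehicle and 0 counts in K562. SOX6, a repressor of embryonic globin, stood at 7.84 CPM, higher than the 0.0187 CPM of vehicle and called lower than the 22.3 CPM of K562.

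Of 14 heme synthesis genes tested, 10 were called higher and 3 lower than vehicle (41.8% and 44.2% of all genes were), with a median log2 difference of 1.04. FAM210B, a mitochondrial protein needed for erythroid iron use, stood at 224.7, 206.1 and 215.6 CPM against 26.7, 29.8 and 29.9 CPM in vehicle. UROD stood at 240.6, 255.4 and 234.0 CPM against 31.1, 35.3 and 36.0 CPM. ALAS1, the form of the first enzyme used outside red cells, and ALAD were lower, by 0.97 and 1.52. UROS was called lower by 0.15, a call that was lost in 11 of the settings tried, among them each setting that left out 1 library labelled resistant 1. Against K562, 9 of the 14 were called higher and 3 lower (27.0% and 26.2% of all genes were), with FAM210B 0.71 higher and UROD 0.64 lower.

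Megakaryocyte genes were split. Of 19 on the list only 10 were tested, 7 higher and 3 lower than vehicle, and 9 (among them PF4, VWF and GP9) did not pass the filter. CAVIN2 had 129.7, 120.6 and 132.7 CPM and TUBB1 36.4, 37.4 and 37.2 CPM, against 0 counts in vehicle for both. ITGA2B, the platelet integrin alpha IIb, stood at 71.7 CPM against 2.40 CPM in vehicle and 13.9 CPM in K562, and ITGB3, its partner, at 7.71 CPM against 0.837 and 2.31 CPM. Both subunits were called at least 2-fold above vehicle and K562. THBS1, thrombospondin, stood at 16.4, 16.1 and 16.2 CPM, under the 31.8 to 33.2 CPM of vehicle and above the 1.74 to 2.95 CPM of K562.

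Myeloid transcription factors were lower in the libraries labelled resistant 1. All 15 tested of 19 were called lower, where 44.2% of all genes tested were, with a median log2 difference of -3.83. CEBPA stood at 0.190, 0.483 and 0.338 CPM against 398.5, 433.8 and 445.2 CPM in vehicle and was not called against K562. SPI1 stood at 19.0, 22.4 and 20.5 CPM against 172.8, 172.9 and 177.5 CPM in vehicle, a log2 difference of -3.08 ± 0.07 (SE; adjusted p = 4.6e-25). In K562, SPI1 had 5.97, 6.51 and 8.17 CPM, so the libraries labelled resistant 1 lay between the lines without overlapping either. The same order held for RUNX3, a factor of myeloid and lymphoid cells, with 4.51 CPM between 63.4 CPM in vehicle and 0.367 CPM in K562. It also held for GFI1, with 1.92 CPM between 188.7 and 0.538 CPM. Of the 15 factors, 7 were called higher than in K562 and 0 lower at an adjusted p under 0.05.

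Monocyte and macrophage markers fell almost throughout. Of 32 tested, 30 were called lower and 1 higher than vehicle, with a median log2 difference of -7.70. MNDA, a nuclear protein of monocytes, stood at 0.142, 0.0537 and 0.135 CPM against 280.5, 273.9 and 279.1 CPM in vehicle. The scavenger receptor CD163 had 0 counts against 37.4, 41.5 and 41.5 CPM, at least 729.8-fold lower. CD68, a lysosomal protein, stood at 48.0 CPM against 234.7 CPM in vehicle and 33.5 CPM in K562. TYROBP, an adaptor of myeloid receptors, stood at 2.07 CPM against 21.0 and 0.145 CPM, and lysozyme (LYZ) at 48.9 CPM against 402.8 and 27.0 CPM. These 3 thus lay between vehicle and K562, whereas CD163 and MNDA were at or near 0 in both K562 and the libraries labelled resistant 1. Of the 18 tested markers with more than 3 counts in resistant 1 or K562, 7 were called higher than K562 and 2 lower. The 2 were CD36 (0.313 CPM against 6.21 CPM in K562 and 147.9 CPM in vehicle) and SIRPA (0.152 CPM against 1.30 and 209.1 CPM), a fatty acid receptor and an inhibitory receptor. ITGAM, the integrin CD11b, was the marker called higher than vehicle, at 4.51 CPM against 2.13 CPM, with 1.26 CPM in K562.

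Of 11 neutrophil granule genes tested, 10 were lower and 1 was higher. MMP9 had 3 counts in the libraries labelled resistant 1 and 233.5, 237.0 and 256.9 CPM in vehicle, and RNASE2 2 counts (between 0 and 0.0676 CPM) against 176.4, 185.0 and 179.3 CPM. PRG2, the major basic protein of eosinophils, was the exception, with 44.3, 48.2 and 43.0 CPM against 0.410 to 0.671 CPM in vehicle and a mean of 12.2 CPM in K562. It was thus above both lines.

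The homeobox clusters HOXA and HOXB, which pattern the body axis and mark blood progenitors, also differed. All 10 tested genes of HOXA were lower in the libraries labelled resistant 1, and 8 of those 10 had at most 3 counts in both these and K562. HOXA10 had 0 counts against 148.3, 153.8 and 159.1 CPM in vehicle, at least 2789-fold lower, and HOXA11 2 counts against 59.8, 63.4 and 66.7 CPM. HOXB, by contrast, was expressed on both sides. HOXB9 stood at 195.4, 196.5 and 192.0 CPM against 9.73, 10.3 and 10.8 CPM in vehicle and 193.3, 195.7 and 195.4 CPM in K562, and HOXB4 was 1.95 higher than vehicle. HOXB3 was 0.74 lower, and of 9 HOXB genes 5 were called higher and 4 lower.

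Some genes that were on in one group and off in the other were neighbours. With on defined as at least 1 CPM and off as under 0.1 CPM, runs of at least 4 consecutive genes, passing over those under 1 CPM in both groups, were found 6 times with vehicle on (32 genes) and 8 times with resistant 1 on (45 genes). On chromosome 7, 10 genes from HOXA5 (start 27141052) to HOTTIP (end 27207259) were on in vehicle and off in the libraries labelled resistant 1. On chromosome 9, the run from HACD4 (start 20999509) to CDKN2B (end 22009305) included the cell cycle inhibitor gene CDKN2A at 4.88 CPM in vehicle and 0 counts in both other groups. On chromosome 19, leukocyte receptor genes from LILRA1 to FCAR had 5.48 to 93.0 CPM in vehicle, with at most 2 counts per gene in the libraries labelled resistant 1. The other runs with vehicle on lay at SLC2A5 to LINC01759 (chromosome 1), SH3RF3 to LINC01123 (chromosome 2) and WNT7B to PRR34-AS1 (chromosome 22). Several of these genes overlap an antisense gene, as HOXA10 does HOXA10-AS, and without the strand setting of the counting, which the labels do not state, their reads cannot be told apart.

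In the other direction, 10 genes from HBD (start 5232678) to TRIM6 (end 5612958) on chromosome 11 were on in the libraries labelled resistant 1 and off in vehicle, including 3 olfactory receptor genes next to the globins. OR51B5, at 167.9 CPM, was the most abundant of those 3, and its annotated span overlaps HBE1 and HBG2. On chromosome 16 the run held the alpha-type globins HBZ, HBA2, HBA1 and HBQ1. HBZ, the embryonic zeta globin gene, had 362.8 CPM against 0 counts in vehicle and 258.6 CPM in K562. On the X chromosome, 10 genes from PASD1 to MAGEA6 (151563675 to 152769716) held 6 of the MAGE and CSAG tumour antigen genes. On chromosome 7, TES, CAV2, CAV1 and MET were on together. CAV2, a protein of the cholesterol-rich pits called caveolae, had 63.4, 57.7 and 65.6 CPM, with 1 count in vehicle, and was not called against K562. CAV1, the main caveolar protein, had only 1.28, 1.07 and 1.82 CPM and was at least 23.9-fold higher than vehicle. The other runs were PAX9 to MIPOL1 (chromosome 14), ZNF702P to ZNF818P (chromosome 19), TFPI to COL3A1 (chromosome 2) and LINC01667 to RBM11 (chromosome 21).

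Genes with 0 counts in all 3 libraries of one group and at least 10 CPM on average in the other were counted as well. There were 91 with 0 counts in the libraries labelled resistant 1, of which 86 had at most 3 counts in K562 and 0 reached 1 CPM there. There were 168 with 0 counts in vehicle, and all 168 reached 1 CPM in K562, 138 of them at least 10 CPM. No gene silent in the libraries labelled resistant 1 by this measure was therefore active in K562.

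Cholesterol synthesis genes gave opposite directions against the 2 references. Of 22 genes tested, 17 were called higher than vehicle (41.8% of all genes were), 3 lower and 2 not called, with a median log2 difference of 0.71. Of the same 22, 17 were called lower than K562 (26.2% of all genes were) and 3 higher, with a median of -0.29. The list summed to 2778 to 2827 CPM per library, between 1961 to 1986 CPM in vehicle and 3424 to 3528 CPM in K562. The 3 groups did not overlap. DHCR7, which reduces 7-dehydrocholesterol to cholesterol, stood at 137.4, 147.2 and 146.6 CPM, above vehicle (37.8, 36.8 and 40.4 CPM) and below K562 (190.4, 183.2 and 193.5 CPM). EBP, a sterol isomerase, followed the same order, with 76.3, 87.4 and 78.6 CPM between 18.0 to 20.8 CPM in vehicle and 99.7 to 109.3 CPM in K562.

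HMGCS1, an early enzyme that makes HMG-CoA, was 1.22 above vehicle and 0.33 below K562. SQLE, the squalene epoxidase, was an exception at 351.5, 329.4 and 322.3 CPM, above both vehicle (155.8 to 159.8 CPM) and K562 (295.4 to 306.3 CPM). FAXDC2, a sterol enzyme relative, stood at 61.1, 59.7 and 55.7 CPM, with 1 count in vehicle, and was 0.73 higher than in K562.

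The largest deficits against K562 were in CYP51A1 and LSS, consecutive enzymes of lanosterol formation and demethylation. CYP51A1 stood at 167.2, 155.8 and 175.2 CPM against 198.5, 183.5 and 190.9 CPM in vehicle and 286.5, 321.6 and 295.5 CPM in K562, a log2 difference of -0.20 ± 0.05 (SE; adjusted p = 0.0010) from vehicle and -0.86 from K562. Without library 2 of resistant 1, the difference from vehicle was -0.10 and was no longer called. LSS is named after its values were seen. LSS stood at 68.4, 75.2 and 71.4 CPM, above the 51.0 to 53.4 CPM of vehicle and 0.81 below K562. PMVK and FDPS were lower than vehicle by 1.72 and 0.37 and lower than K562 by 0.38 and 0.21.

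**Figure D3:**
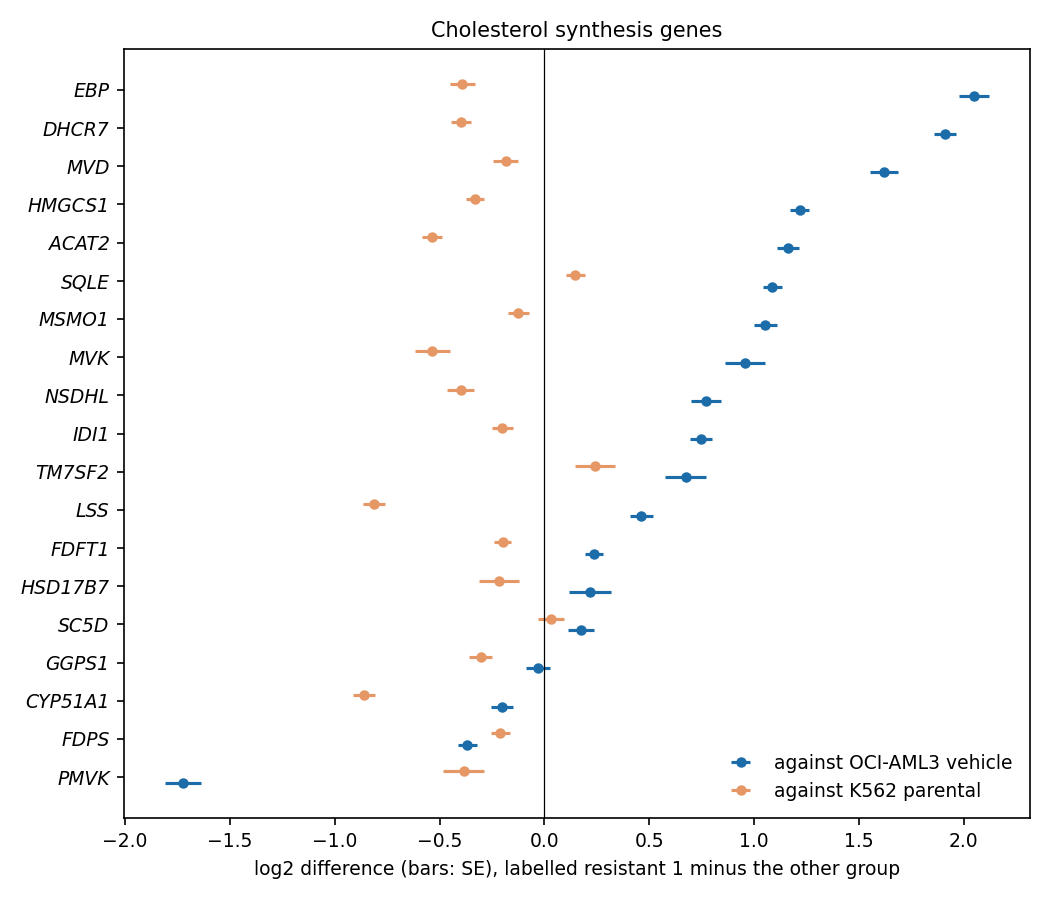
Log2 difference of 19 of the 22 cholesterol synthesis genes between the libraries labelled resistant 1 and vehicle (blue) or K562 (orange), with bars of 1 SE, 3 libraries per group. Blue points lie mostly right of 0 and orange points mostly left of it, with CYP51A1 and LSS farthest below K562. FAXDC2, with 1 count in vehicle, is among the 3 genes not drawn.

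Of 22 genes tested that sense, take up and move sterol, 11 were called higher and 10 lower than vehicle, shares near the 41.8% and 44.2% of all genes. Against K562, 5 were called higher and 9 lower. INSIG1, which holds SREBPs back when sterols are plentiful, stood at 216.2, 206.5 and 204.4 CPM, 0.22 above vehicle (176.4 to 185.0 CPM) and 0.85 below K562 (365.7 to 386.7 CPM). SREBF2, which encodes SREBP2, was 0.77 lower than vehicle and not called against K562.

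SREBF1 and the cholesterol esterifying enzyme gene SOAT1 were called lower than vehicle by 0.19 and 0.23. The call of SREBF1 was lost without library 3 of resistant 1 (-0.09) and without the K562 libraries (-0.12), and that of SOAT1 without library 2 (-0.14). NPC1, which exports cholesterol from lysosomes, stood at 51.4, 51.6 and 56.6 CPM, 0.53 above vehicle and 0.45 below K562. VLDLR and the lysosomal lipase LIPA went the other way. LIPA stood at 0.0474, 0.0537 and 0.203 CPM against 79.1, 77.1 and 77.2 CPM in vehicle, and VLDLR at 0.142, 0 and 0.473 CPM against 53.2, 47.8 and 46.4 CPM, with neither called against K562.

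Of the 8 genes of cholesterol efflux and LXR response that were tested, 6 were lower and 2 higher than vehicle. ABCA1, the main cholesterol exporter, had 2 counts against 15.1, 13.9 and 11.7 CPM in vehicle, and K562 had 1 count. APOE, an apolipoprotein that accepts cholesterol, stood at 155.3, 161.7 and 141.7 CPM against 0.0491 to 0.137 CPM in vehicle and 64.7 to 65.5 CPM in K562. APOC1, its neighbour on chromosome 19, stood at 88.7, 103.5 and 93.3 CPM against 1.96 to 3.24 and 49.9 to 55.9 CPM. APOE was thus called at least 2-fold above both lines and APOC1 0.84 above K562 on the log2 scale.

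Inflammatory signalling genes were mostly lower than in vehicle. Of 36 cytokine, chemokine and receptor genes tested, 26 were called lower and 8 higher (44.2% and 41.8% of all genes were). Their median log2 difference was -3.49. CXCL8, a neutrophil attractant, stood at 1.37, 1.56 and 1.22 CPM against 260.9, 256.2 and 218.3 CPM in vehicle. TNF had 1 count in the libraries labelled resistant 1 against 134.9, 144.2 and 137.7 CPM in vehicle, and IL1B stood at 0.237, 0 and 0.0676 CPM against 66.4, 64.0 and 70.2 CPM. K562 had 0 counts of both. Of the 36, 17 were called higher than K562 and 6 lower, at an overall 27.0% and 26.2%. CSF1, the macrophage growth factor, stood at 27.8, 27.9 and 28.2 CPM, above the 2.35 to 3.55 CPM of vehicle and the 7.07 to 8.25 CPM of K562. IL18 was likewise higher than both, at 9.86 to 11.3 CPM against 2.80 to 3.34 and 4.32 to 5.33 CPM.

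Of 30 genes of NF-kB subunits, regulators and targets, 18 were lower and 7 higher than vehicle (44.2% and 41.8% of all genes were). Their median log2 difference was -0.76. NFKB1, which encodes p105 and p50, stood at 23.5, 22.5 and 22.4 CPM, below both vehicle (96.9 to 99.4 CPM) and K562 (40.6 to 44.4 CPM), with log2 differences of -2.11 and -0.89. RELA was not called against vehicle, at 57.2, 61.0 and 54.3 CPM against 56.7, 62.9 and 62.2 CPM. BIRC3, an inhibitor of cell death induced by NF-kB, was above both lines at 5.59, 5.26 and 6.69 CPM against 1.23 to 1.51 and 1.03 to 1.32 CPM. Among 27 inflammasome and Toll-like receptor genes, 16 were lower and 7 higher, beside the same shares of all genes. NLRP3 stood at 0.0474, 0.0537 and 0.135 CPM against 156.9, 163.4 and 169.4 CPM, TLR2 at 0.190, 0 and 0.135 CPM against 107.1, 104.5 and 106.7 CPM and the pore protein gene GSDMD at 3.13, 2.42 and 1.82 CPM against 26.0, 24.7 and 28.2 CPM. Neither NLRP3 nor GSDMD was called against K562, whereas TLR2, with 6 counts here and 0 in K562, was.

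Interferon response and antigen presentation genes were mostly lower than in vehicle. Of 37 type I interferon genes tested, 26 were lower and 6 higher than vehicle (44.2% and 41.8% of all genes were). Against K562, 13 of these genes were higher and 3 lower (27.0% and 26.2% of all genes were). Their summed level was nevertheless alike, at 1105 to 1161 CPM against 1133 to 1144 CPM in vehicle. IFITM1, an antiviral membrane protein, supplied 303.8, 334.2 and 303.1 CPM of it against 0.112 to 0.196 CPM in vehicle. IFITM3, which hinders viral entry at endosomal membranes, stood at 120.5, 140.9 and 127.2 CPM, above the 9.06 to 10.2 CPM of vehicle and the 55.3 to 60.5 CPM of K562. Of 20 antigen presentation genes tested, 19 were lower and 0 higher than vehicle by edgeR. HLA-E, TAP1, PSMB9 and B2M stood between the lines, at 61.5, 20.5, 7.12 and 371.1 CPM. Vehicle had 372.3, 38.1, 45.8 and 593.0 CPM of these, and K562 31.1, 7.05, 1.14 and 309.4 CPM. Of the 20, 9 were called higher than K562 and 3 lower. HLA genes vary between cell lines in sequence, which can change how many reads align.

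The same intermediate position was counted over all genes, beside the position beyond both lines. Of the 3347 genes called at least 2-fold lower than vehicle, 458 were also called at least 2-fold higher than K562. A further 110 of the 3347 were called at least 2-fold lower than K562. Genes near the floor in K562 can hardly be called lower than K562, so the 458 and the 110 are not an even comparison. Of the 3203 called at least 2-fold higher than vehicle, 78 were called at least 2-fold lower than K562 and 512 at least 2-fold higher. By these counts the intermediate position was the more frequent of these 2 only among genes lower than vehicle. Because of the floor in K562, no conclusion is drawn from that. SPI1, RUNX3, TYROBP and PSMB9 were among the 458.

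Lists of membrane lipid, repair and surface sugar genes held members in both directions, where 41.8% of all genes were called higher and 44.2% lower. Of 28 sphingolipid genes, 15 were lower and 7 higher than vehicle. SGMS1, a sphingomyelin synthase of the Golgi, stood at 129.6, 130.3 and 128.5 CPM against 8.11, 7.36 and 8.88 CPM in vehicle, while SGMS2, the plasma membrane form, stood at 0.270 to 0.322 CPM against 14.1 to 15.7 CPM. The 2 synthases thus differed in opposite directions. SGMS1 was 0.29 lower than in K562. UGCG, which makes glucosylceramide, was 1.66 higher than vehicle and 0.28 higher than K562. Of 15 scramblase and flippase genes, 9 were lower and 5 higher. The flippase ATP8B4 stood at 1.14, 0.859 and 1.15 CPM against 359.2, 343.6 and 327.2 CPM, and the scramblase PLSCR1 at 59.0, 54.7 and 50.9 CPM against 15.6, 16.0 and 17.3 CPM. Neither was called against K562. TMEM63B, at 91.0, 100.0 and 95.9 CPM, was above vehicle (15.4 to 18.5 CPM) and 0.64 above K562.

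Of 24 annexin and membrane repair genes, 10 were higher and 11 lower than vehicle, shares near those of all genes. ANXA1 stood at 317.3, 299.4 and 303.9 CPM against 18.3, 18.2 and 16.9 CPM in vehicle, and ANXA6 at 31.1, 31.0 and 28.9 CPM against 417.9, 447.0 and 459.6 CPM. ANXA1 was not called against K562, and ANXA6 was 1.58 higher there. MYOF, a ferlin that reseals membranes, stood at 0.0537 to 0.270 CPM against 74.1 to 74.3 CPM. Among surface sugars, 20 of 32 heparan and chondroitin sulfate genes were lower and 11 higher. Of 20 sialic acid genes, 9 were higher and 10 lower. ST6GAL1, which adds terminal sialic acid to N-glycans, stood at 213.0, 213.9 and 217.9 CPM, above vehicle (11.8 to 14.1 CPM) and K562 (147.7 to 151.3 CPM). ST6GALNAC1 and ST8SIA6 had 0 counts in vehicle and between 29.2 and 52.2 CPM in the libraries labelled resistant 1. ST3GAL1 was 2.48 lower than vehicle and 0.98 higher than K562.

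Several genes of the kinase signalling known in K562 differed from vehicle. K562 is known to carry the BCR-ABL1 fusion, and gene counts do not separate the fusion from its parts. BCR stood at 170.3, 186.2 and 174.7 CPM against 43.1, 39.8 and 44.5 CPM in vehicle and was not called against K562. ABL1 stood at 368.3, 388.5 and 381.4 CPM against 112.3, 113.3 and 123.4 CPM and was 0.10 higher than K562. STAT5A, a target of that kinase, stood at 403.2, 429.0 and 403.1 CPM against 1.85, 2.36 and 2.60 CPM, and PIM1, a survival kinase induced by STAT5, at 549.7, 574.8 and 551.1 CPM against 6.71, 8.44 and 7.04 CPM. STAT5A was 0.44 lower and PIM1 0.59 higher than K562. The phosphatases PTPN6 and INPP5D, which restrain such signals, stood at -7.23 and -5.10 from vehicle and at 0.77 and 1.23 from K562 on the log2 scale. Of 18 JAK-STAT genes, 11 were higher and 7 lower than vehicle, and of 16 BCR, ABL1 and adaptor genes 8 were higher and 8 lower, with a median of 0.02, where 41.8% of all genes were higher and 44.2% lower.

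Of 14 BCL2 family genes, 10 were lower and 3 higher than vehicle (44.2% and 41.8% of all genes were). BCL2 stood at 3.98, 3.38 and 2.77 CPM against 273.4, 273.0 and 275.5 CPM and BCL2L1, which encodes BCL-XL, at 189.5, 197.0 and 189.5 CPM against 30.8, 30.3 and 30.5 CPM. BCL2L1 was not called against K562 and BCL2 was 0.83 higher. Of 27 genes on the p53 target list, 17 were lower and 8 higher than vehicle. CCNG1, FDXR and GDF15, which p53 is known to induce, were nevertheless higher than both lines. On the log2 scale they stood 1.15, 1.47 and 4.72 above vehicle and 0.87, 1.00 and 0.85 above K562. Of 24 death receptor, caspase and inhibitor genes, 12 were lower and 9 higher, shares near those of all genes. FAS stood at 0.948 to 1.15 CPM against 14.5 to 16.2 CPM, and RIPK3, a kinase of necroptosis, had 2 counts against 4.53 to 5.94 CPM in vehicle.

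Genes of proliferation and basic metabolism differed by small amounts. Of all genes tested, 41.8% were called higher and 44.2% lower than vehicle, and 27.0% higher and 26.2% lower than K562. Of 30 G2 and M phase genes, 19 were higher and 9 lower than vehicle, with a median of 0.39, and 20 were higher and 3 lower than K562, with a median of 0.20. CDK1 stood at 388.5, 361.6 and 381.8 CPM, above vehicle (153.7 to 165.1 CPM) and K562 (269.7 to 310.8 CPM), as did DLGAP5 (212.7 to 236.1 CPM against 99.2 to 101.5 and 129.8 to 145.9 CPM). MKI67 was 0.66 lower than vehicle. UBE2C, a ubiquitin enzyme of mitotic exit, stood at 0.427, 0.698 and 0.473 CPM against 114.1, 119.1 and 124.1 CPM, and was as low in K562 (0.316 to 1.10 CPM). Of 32 S phase genes, 16 were higher and 12 lower than vehicle, near the shares of all genes, and 5 higher and 15 lower than K562. Of 78 cytosolic ribosomal protein genes, 57 were lower and 11 higher, with a median of -0.28, and of 34 oxidative phosphorylation genes 23 were higher and 6 lower, with a median of 0.42. Housekeeping genes were no fixed reference here, since ACTB was 1.39 and GAPDH 1.14 lower than vehicle.

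Markers of other cell types were measured as well. The cancer-testis antigens, expressed normally in germ cells, were higher for 16 of 16 tested, with a summed level of 2335 to 2345 CPM against 1.45 to 2.55 CPM in vehicle and 2549 to 2592 CPM in K562. MAGEA3 and MAGEA6, near-identical copies with uncertain division of reads, had 0 counts in vehicle. CTAG2 was the member farthest below K562, at 0.693 CPM against 16.2 CPM. Of 9 fibroblast and epithelial markers tested, 7 were higher. KRT8, a keratin, stood at 189.1, 207.2 and 178.8 CPM, KRT19 at 88.9, 93.4 and 87.2 CPM and the adhesion molecule EPCAM at 62.5, 60.5 and 63.2 CPM, against at most 0.205 CPM in vehicle. K562 had 195.9, 201.9 and 200.6 CPM of KRT8. The defining fibroblast markers DCN, LUM and PDGFRA stood at 0.164 CPM or less, and KRT5 and CDH5 at 0 counts. COL3A1, a collagen gene of the same list, was called higher, at 0.900, 1.29 and 1.01 CPM against 0 counts in vehicle. It was 0.96 higher than in K562 on the log2 scale. Of 8 lymphocyte markers tested, 5 were lower and 3 higher than vehicle. CD4 was lower (0.0948, 0.215 and 0.405 CPM against 352.6, 363.2 and 383.1 CPM). CD3D was higher, at 8.53, 8.48 and 9.59 CPM against 0 counts in vehicle, and was not called against K562. CD8A, LCK and MS4A1 had 0 counts in the libraries labelled resistant 1. Of 5 stem and progenitor markers tested, KIT and MECOM were higher and FLT3, CD38 and MLLT3 lower.

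**Figure D4:**
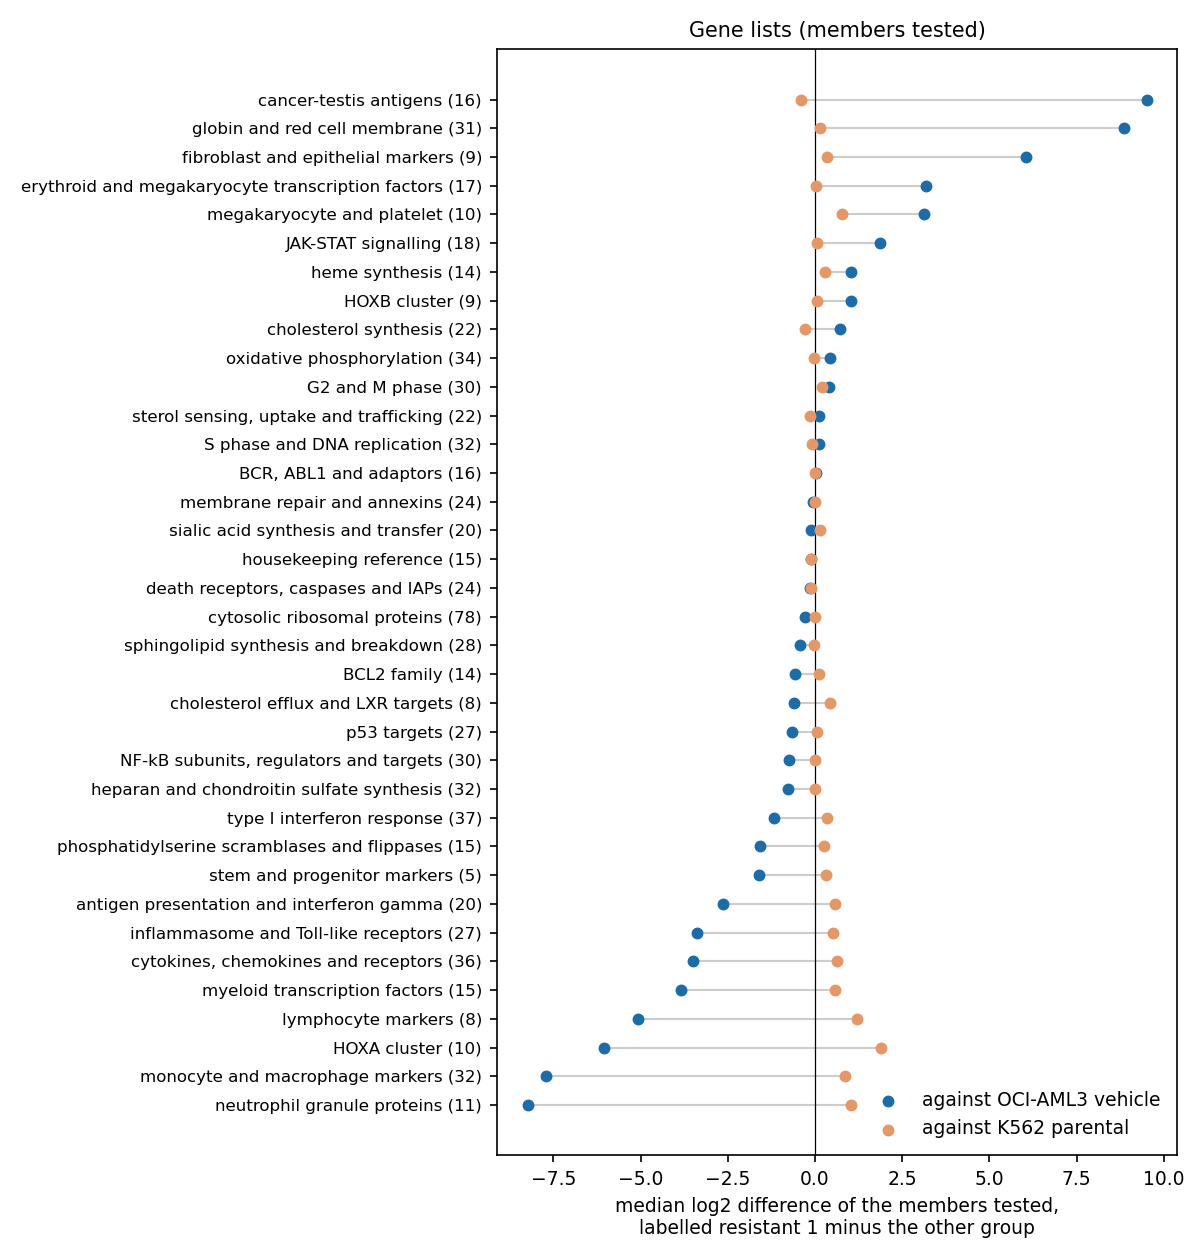
Median log2 difference of the members tested of 36 gene lists (number of members in brackets) between the libraries labelled resistant 1 and vehicle (blue) or K562 (orange), with groups at 0 counts set to 3 counts over the group and members at or under 3 counts in both groups left out. In each list the median absolute difference was smaller against K562; the medians against K562 run from -0.39 to 1.89, the last over 2 HOXA genes.

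A smaller set of genes stood apart from both lines. Genes called at least 2-fold higher than both vehicle and K562 numbered 512 (3.5% of those tested), and genes called at least 2-fold lower than both 110 (0.753%). The latter count was 64 when each comparison was fitted separately, on only the groups compared. The median log2 difference of the higher set was 4.33 from vehicle and 1.61 from K562, and that of the lower set -4.13 and -1.68, values that the choice of the genes fixes in sign. Of the higher set, 127 met the further conditions on level and overlap under which genes are named, and of the lower set 6.

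The 10 named higher genes included membrane transporters and lipid enzymes. AQP1, the water channel of red cells (chr7:30911853-30925517), stood at 71.7, 68.5 and 61.5 CPM against 0.448, 0.589 and 0.273 CPM in vehicle and 7.62, 7.63 and 9.96 CPM in K562, with log2 differences of 7.19 ± 0.15 and 2.99 ± 0.09 (SE). ELOVL2, which elongates polyunsaturated fatty acids (chr6:10980759-11044305), stood at 29.0, 28.5 and 29.5 CPM against 0.0683 to 0.280 CPM in vehicle and 2.20 to 2.79 CPM in K562. SLC27A6, a fatty acid transport protein, had 10.9, 11.2 and 11.2 CPM against 0 counts in vehicle and 1.00 to 1.65 CPM in K562. CLCN4, a chloride and proton exchanger, stood at 14.2, 14.4 and 15.9 CPM against 1.45 to 1.82 and 1.48 to 2.27 CPM, and SLC4A1 is described above.

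NEO1, the netrin receptor neogenin (chr15:73051710-73305205), stood at 56.5, 55.9 and 63.2 CPM against 1.30 to 1.91 CPM in vehicle and 3.98 to 5.77 CPM in K562. TEX19, a germ cell gene, stood at 17.6, 17.8 and 16.5 CPM against at most 0.147 and 1.36 CPM, the highest of the set by the smaller of its 2 differences (3.96, from K562). GABRG1, a subunit of the GABA receptor, had 74.3, 61.9 and 69.7 CPM against 0 counts in vehicle and 5.90 to 7.50 CPM in K562. TNS4, a tensin, averaged 14.2 CPM against 0 counts in vehicle and 0.868 to 1.37 CPM in K562. CRSP8P, listed by this name in the deposited table and without a position here, stood 3.01 above K562. For these 10 genes, by rule, each of the 3 libraries labelled resistant 1 exceeded all 6 of the others.

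Of the 6 named lower genes, 2 encode parts of the membrane skeleton. SPTAN1, non-erythroid alpha spectrin (chr9:128552558-128633662), stood at 16.4, 15.7 and 15.7 CPM against 316.2, 318.9 and 310.2 CPM in vehicle and 36.7, 32.0 and 32.3 CPM in K562. UTRN, utrophin (chr6:144285335-144853034), stood at 20.3, 20.8 and 21.5 CPM against 136.9 to 147.0 CPM in vehicle and 40.1 to 44.2 CPM in K562. The others were the RNA methyltransferase gene MEPCE (55.5 to 62.7 CPM against 160.1 to 168.9 and 123.5 to 127.2 CPM), the neurofilament gene NEFH, the EGR corepressor NAB2 and LOC101927746. The largest of the 6 differences from K562 was -1.07 (SPTAN1), so all lay close to the 2-fold threshold.

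The difference from vehicle also varied by chromosome. Chromosome 6 had the highest median log2 difference, 0.54, with 61.0% of its 711 genes tested called higher, followed by X with 0.42 and chromosome 21 with 0.29. Chromosome 8 had the lowest, -0.48, with 62.1% of 467 genes called lower, followed by chromosome 17 with -0.35. Against K562 the medians lay between -0.10 and 0.08, except on chromosome 14 (0.20) and chromosome 7 (-0.15). Copy number was not measured here.

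**Figure D5:**
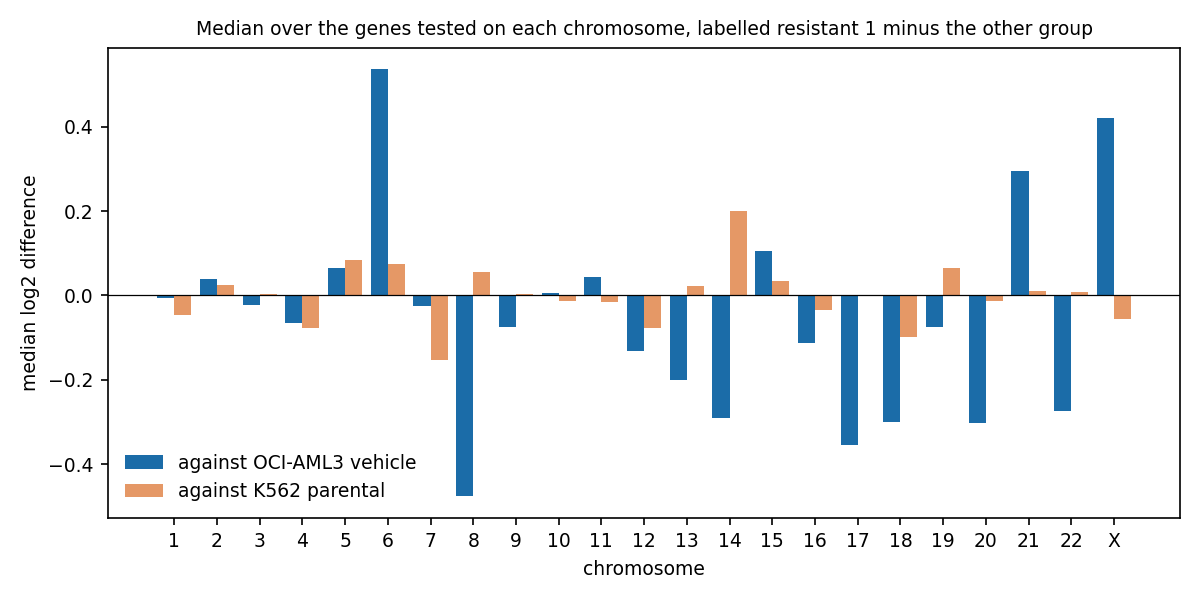
Median log2 difference over the genes tested on each chromosome between the libraries labelled resistant 1 and vehicle (blue bars) or K562 (orange bars). The blue bars of chromosomes 6, 8, 17 and X are the tallest, between -0.48 and 0.54, and no orange bar exceeds 0.20 in size.

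Resistant 1 and vehicle were also sequenced in batch 2, in 3 libraries each of 30719771 to 51262668 counts, and the labels give both batches the same resistant biological replicate. There 11521 of 15218 genes were called (75.7%). Of the 512 genes higher than both lines in batch 1, 498 were tested in batch 2, where 480 were called higher than vehicle and 3 lower. Of the 110 lower genes 101 were tested, of which 85 were called lower and 3 higher. The 75.7% of all genes covers both directions together. Both sets were chosen in batch 1 partly for a difference from vehicle, and these counts concern that difference only. All 10 named higher genes and all 6 named lower genes had the same direction from vehicle in batch 2, with log2 differences of 2.66 for CLCN4, 5.18 for AQP1, 5.85 for NEO1, -0.89 for UTRN and -3.64 for SPTAN1. The level was not always kept. AQP1 averaged 6.40 CPM in the batch 2 libraries labelled resistant 1 and 67.2 CPM in those of batch 1, while GABRG1 averaged 70.7 and 68.6 CPM. Among red cell genes, ALAS2 averaged 31.9 CPM in batch 2 and 116.8 CPM in batch 1, HBZ 11.7 and 362.8 CPM, and GATA1 160.3 and 216.3 CPM. The batches were scaled in separate fits, and these shifts were not tested. Batch 2 held no K562 library, so a difference from K562 was not measured there. Among sterol genes, some values in batch 2 lay near those in batch 1 and others did not. EBP was 2.05 above vehicle in batch 1 and 2.11 in batch 2, and FDPS stood at -0.37 and -0.60. SQLE, 1.09 above vehicle in batch 1, was 0.02 above it in batch 2, HMGCS1 went from 1.22 to 0.30, and INSIG1 from 0.22 to -0.14. DHCR7 went from 1.91 to 0.76 and CYP51A1 from -0.20 to -0.92. The difference between batches was not tested for these genes.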

How the data were processed

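Counts per gene symbol were deposited by the authors as raw counts, without any scaling, in 1 table per batch. The submitters' processing notes name hg38 and DESeq2 1.22.1, and the labels describe strand-specific mRNA libraries. How reads were aligned and assigned to genes is not stated in the labels. The 12 libraries of batch 1 (4 groups of 3) were fitted together with edgeR 4.0.16 in R 4.3.3 (TMM, filterByExpr, robust quasi-likelihood fit, two-sided F tests), with Benjamini-Hochberg adjustment over 14609 genes and calls at an adjusted p under 0.05. The 9 libraries of batch 2 were fitted separately. CPM refer to TMM-scaled library sizes, and SE is the log2 difference divided by the root of F. Against a group at 0 counts, folds are bounds against 3 counts over the group. With 1 to 3 counts the ratio has an exact 95% interval for counting error only. In medians of lists, a group at 0 counts was set to 3 counts, and genes with at most 3 counts in both groups were left out. The fit was checked on simulated counts in which a small set of genes was changed by known folds. Most genes differed between the groups compared here, a setting that the check did not cover.

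Named genes were the 10 most abundant called genes per direction with an absolute log2 difference of at least 2 and no overlap, and up to 10 per direction apart from both lines with at least 10 CPM. Added to these were, from each of 36 lists, up to 3 called members per direction, by size of difference, at 5 CPM or more, a set of fixed genes, and runs of at least 4 neighbours. The lists and genes were chosen with earlier results of these data known. Named outside this rule, after their values were seen, were EPB42, CD68, TYROBP, CA1, AHSP, HBB, SOX6, ITGA2B, ITGB3, RUNX3, GFI1, LYZ, CD36, SIRPA, ITGAM, OR51B5, LSS, HLA-E, TAP1, PSMB9, CTAG2 and the markers given only as untested or near 0. Gene positions are GENCODE's on hg38, with 24575 symbols matched directly and 754 through an older symbol. Alternatives were DESeq2 1.42.0, its size factors, no filter, fewer groups, a replicate block, other thresholds and leaving out each library. Some genes of the lists are counted but not reported here by name.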

Additional observations from a re-analysis of the deposited data

Results flagged for a closer look

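THBS1, thrombospondin, was lower than vehicle in batch 1 (log2 difference -0.99) and higher in batch 2 (3.37). PECAM1, an adhesion molecule of platelets and vessel cells, was -0.22 in batch 1 and 0.99 in batch 2. Its batch 1 difference was no longer called without library 2 (-0.13) or library 3 (-0.16) of resistant 1, or without the K562 libraries (-0.15). NPM1, a nucleolar protein gene, was 0.23 in batch 1 and -0.20 in batch 2, where its adjusted p was 0.16 by edgeR. For these 3 genes the libraries labelled resistant 1 lay wholly to one side of vehicle in batch 1 and wholly to the other side in batch 2. The difference between the batches was not tested.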

How the results depend on the processing

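The counts of genes higher and lower than vehicle, of 2-fold differences and of differences from K562 stayed within 1.5 times the reported value under each alternative run. Leaving out 1 library gave 6027 to 6528 genes higher, 6097 to 6586 lower, 6639 to 6788 at 2-fold, 6933 to 8116 different from K562, 549 to 627 above both lines and 87 to 116 below both. Genes below both lines numbered 64 when each comparison was fitted separately, on only the groups compared. With no minimum fold, 2067 genes were above and 1647 below both. Genes at 0 counts in resistant 1 numbered 154 at 5 CPM in vehicle and 249 with up to 3 counts allowed, against 91. Same-numbered libraries deviated from their group means with correlations of 0.31, 0.15 and -0.08, so the numbers were not taken to pair them. A replicate block gave 6067 genes higher, 6421 lower, 7559 different from K562, 513 above both and 107 below both. RELA, not called, turned from -0.07 to 0.00096 without K562 and ranged from -0.118 (without vehicle replicate 1) to 0.0267 (without resistant 1 replicate 3) with 1 library left out. Of 305 named genes, 8 changed call or sign in some setting. Of 72 list counts, 2 moved by over 1.5 times: neutrophil genes higher (3 with no filter) and fibroblast and epithelial markers lower (1 or 4). The cause of these shifts was not tested. At these depths, genes with at most 3 counts in both groups gave no fold.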
